A study of Homo sapiens with 6 samples.

Results

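The genes described here are 10 factors that mark neural stem cells and the stem-like cells of glioma: SOX2, SOX9, OLIG2, ID1, ID3, NOTCH2, MSI1, MSI2, NES and FABP7. They were taken by gene symbol as known stemness genes, with earlier results of these data known. All 10 were found among the 18417 genes that carry a symbol of their own on the array. U373MG, an established human glioblastoma line, was exposed for 24 hours to ET-770 at 4.83 nM, to ET-770-DR at 1.70 nM or to RM at 3.10 nM, and each compound had cells given the vehicle DMSO in the same experiment. ET-770, an ecteinascidin, and RM (renieramycin M) are tetrahydroisoquinoline alkaloids of marine origin, and ET-770-DR is a pyridinecarbonyl derivative of ET-770. Each dose was the 50% inhibitory concentration (IC50) of the compound, which the study determined over a longer treatment than these 24 hours. There was 1 Human Gene 1.0 ST array per arm, hence 3 compound arrays and 3 DMSO arrays of a single line.

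Neural stem cells balance self-renewal and differentiation through a small circuit of nuclear factors, RNA-binding proteins and a receptor. SOX2 and SOX9 are transcription factors of the SOX family that keep progenitors in place and promote glial fate, and OLIG2 is a basic helix-loop-helix (bHLH) factor of oligodendrocyte precursors. ID1 and ID3 lack a DNA-binding domain and hold bHLH factors inactive, NOTCH2 is a receptor that turns on progenitor genes when a neighbouring cell presents a ligand, and the Musashi proteins MSI1 and MSI2 bind messenger RNA and control its translation. NES encodes nestin, an intermediate filament of progenitors, and FABP7 a fatty acid-binding protein of radial glia. In glioblastoma the same genes are used as markers of the cells that propagate the tumour.

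Of the 10 factors, 7 fell with the compounds, 0 rose and 3 did not pass the test. MSI2 fell the most, to 0.173-fold of DMSO on average, and NOTCH2, SOX9, ID1, FABP7, SOX2 and ID3 fell to between 0.497-fold and 0.679-fold. OLIG2, MSI1 and NES did not pass. The test was limma, fitted to the log2 signals of all 18417 genes with each experiment as its own block (n = 3 pairs), with Benjamini-Hochberg adjustment and a threshold of 0.05. Over all genes, 11.2% fell and 13.1% rose by the same rule. Among the brightest 25% of genes by mean signal 13.6% fell, and of the 7 factors in that range (SOX2, SOX9, ID1, ID3, NOTCH2, NES and FABP7) 6 fell. The median change of the 10 factors was -0.82 on the log2 scale, beside 0.03 over all genes. Because the factors were chosen with earlier results of these data known, these comparisons describe them and are not an independent test. By compound the median of the factors was -0.59 (ET-770), -0.97 (ET-770-DR) and -0.70 (RM), beside 0.02, -0.03 and 0.12 over all genes. Here a change is the log2 signal with a compound minus that in its own DMSO array, and SE is the standard error moderated by limma. Values of the compounds follow the order ET-770, ET-770-DR, RM unless named. A call refers to the mean over the 3 compounds, which serve as replicates of each other, and does not test any 1 of them. Without the experiment as a block, limma called MSI2 and no other factor. In bulk RNA, fewer cells expressing a gene and less of its RNA per cell cannot be told apart.

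**Figure D1:**
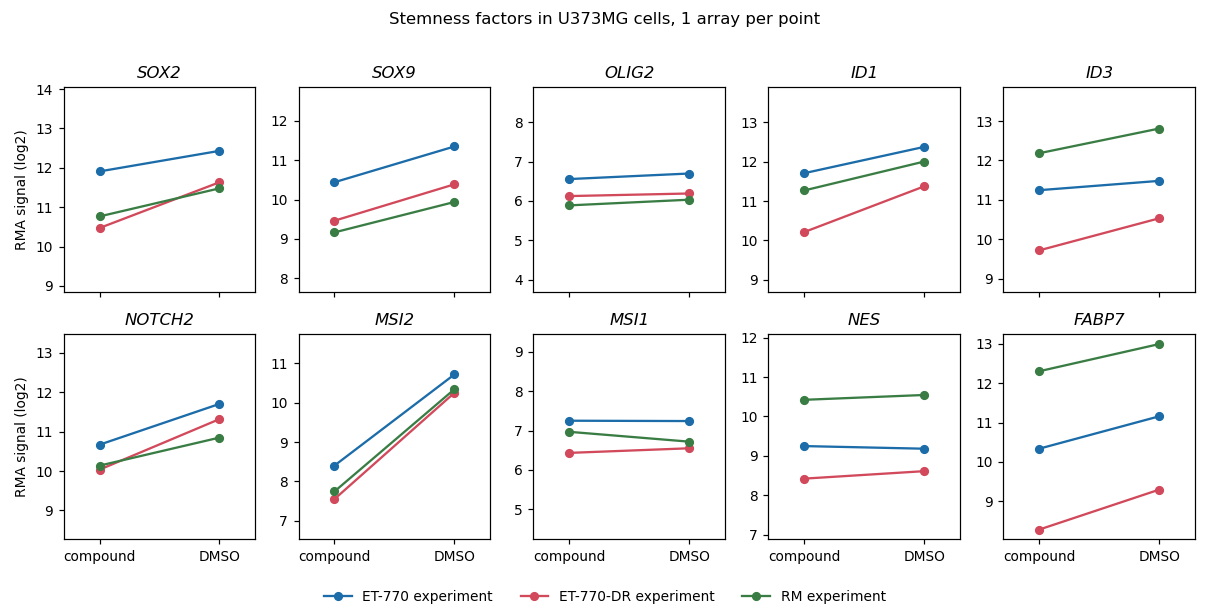
RMA signal on a log2 scale of the 10 factors with a compound (left) and with DMSO (right), with 1 point for an array and a line between the arrays of an experiment; every panel spans the same number of log2 units. All 3 lines of MSI2 are steep, with compound arrays between 7.55 and 8.40 and DMSO arrays between 10.25 and 10.72, and those of OLIG2, MSI1 and NES are nearly level.

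The promoters of 5 factors that fell are shown so that the elements they hold, and do not hold, in common can be read. RefSeq (GRCh38.p14) gave 8 windows of 300 bases for 7 of the 10 factors, each running from 250 bases before a start site to 50 after it, and SOX9, OLIG2 and MSI1 were not matched. In the windows below, capitals mark CCAAT boxes (CCAAT, bound by NF-Y), GC boxes (GGGCGG, bound by SP1) and TATA boxes (TATAAA), read on both strands, so that a CCAAT box on the other strand appears as ATTGG. The window of MSI2 is that of the first of 2 start sites. NOTCH2, which also fell and was matched, is not printed, and its window held GC boxes and no CCAAT box.
SOX2, chr3:181711675-181711974, plus strand: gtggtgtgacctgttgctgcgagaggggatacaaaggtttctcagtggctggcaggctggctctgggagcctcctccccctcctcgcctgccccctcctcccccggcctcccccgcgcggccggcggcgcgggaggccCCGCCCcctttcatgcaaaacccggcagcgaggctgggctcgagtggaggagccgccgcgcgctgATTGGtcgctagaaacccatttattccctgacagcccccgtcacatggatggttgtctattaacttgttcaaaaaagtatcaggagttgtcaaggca
ID1, chr20:31605039-31605338, plus strand: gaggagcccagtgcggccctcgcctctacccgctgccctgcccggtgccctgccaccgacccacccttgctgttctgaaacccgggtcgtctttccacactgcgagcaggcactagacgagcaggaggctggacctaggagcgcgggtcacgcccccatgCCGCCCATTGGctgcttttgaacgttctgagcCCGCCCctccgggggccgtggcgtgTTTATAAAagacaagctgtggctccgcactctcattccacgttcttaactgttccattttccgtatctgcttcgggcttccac
ID3, chr1:23559452-23559751, minus strand: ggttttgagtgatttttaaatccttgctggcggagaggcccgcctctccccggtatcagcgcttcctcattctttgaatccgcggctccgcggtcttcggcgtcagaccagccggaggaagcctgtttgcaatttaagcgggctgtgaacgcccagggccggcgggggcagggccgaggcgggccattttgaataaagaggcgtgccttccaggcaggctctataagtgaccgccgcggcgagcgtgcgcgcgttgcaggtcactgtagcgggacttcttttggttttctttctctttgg
MSI2, chr17:57255601-57255900, plus strand: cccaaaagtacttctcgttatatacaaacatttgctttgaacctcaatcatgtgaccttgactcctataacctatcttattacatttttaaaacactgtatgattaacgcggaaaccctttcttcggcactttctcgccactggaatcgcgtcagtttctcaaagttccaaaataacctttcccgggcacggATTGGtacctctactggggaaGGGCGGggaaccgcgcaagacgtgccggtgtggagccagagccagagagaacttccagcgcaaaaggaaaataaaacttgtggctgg
FABP7, chr6:122779466-122779765, plus strand: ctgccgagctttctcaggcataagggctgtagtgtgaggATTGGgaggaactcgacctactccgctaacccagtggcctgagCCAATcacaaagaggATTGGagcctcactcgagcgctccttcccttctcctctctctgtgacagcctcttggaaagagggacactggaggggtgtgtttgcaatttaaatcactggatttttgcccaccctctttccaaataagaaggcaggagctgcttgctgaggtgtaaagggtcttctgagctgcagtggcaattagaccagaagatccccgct

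A CCAAT box was found in 4 of the 8 windows (SOX2, ID1, the first of MSI2, FABP7), and 34.6% of the 20089 windows of tested genes held one. FABP7 had 3 of them, between bases -211 and -149 from the start site. In ID1 a CCAAT box at -84 to -80 abutted a GC box at -90 to -85, and the TATA element read on both strands overlapped itself between -33 and -26. A TATA box was in 1 of the 8 windows, ID1, against 9.05% of all windows, and a GC box in 5 of the 8, against 57.3%. NES, which did not pass the test, had 4 GC boxes, of which 2 overlapped at base 28, and no CCAAT box. The core bound by RBPJ, the DNA-binding factor of the Notch pathway (TGGGAA, in 22.6% of all windows), and the GC-rich element bound by SMAD1 and SMAD5 downstream of BMP (GGCGCC, in 24.8%) were in 0 of the 8. The SOX motif ACAAAG was in SOX2 and FABP7, against 13.5% of all windows. The E box CANNTG, the core read by bHLH factors, was in SOX2 and MSI2, against 64.8% of all windows. The core TGACG of the cyclic AMP response element was in 5 of the 8 windows, against 28.1%. These were SOX2, ID3, MSI2 at each of its start sites, and NES, which did not pass the test. The SMAD motif CAGACA was in 0 of the 8, against 15.1%. None of the 9 motifs searched was in the windows of all matched factors that fell, and a match is a run of letters in a short window.

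Among the transcription factors, SOX2 had signals of 11.91 (ET-770), 10.47 (ET-770-DR) and 10.77 (RM), against 12.43, 11.63 and 11.48 in the DMSO arrays of those experiments. The DMSO array was the higher of each pair, while the groups overlapped, the ET-770 array lying above both of the other DMSO arrays. SOX2 was at 0.697-fold, 0.447-fold and 0.610-fold with a mean log2 change of -0.80 (SE 0.15, SD of the 3 pairs 0.33, limma adjusted p = 0.0036). SOX9, which acts beside SOX2 in progenitors and in astrocyte development, had signals of 10.44, 9.46 and 9.17 with ET-770, ET-770-DR and RM, against 11.35, 10.39 and 9.94 in their DMSO arrays. Its pairs were the closest to each other among the factors that fell, at 0.533-fold, 0.527-fold and 0.586-fold (log2 change -0.87 on average, SD of the pairs 0.083, SE 0.12, limma adjusted p = 0.00076). OLIG2 gave 6.56, 6.12 and 5.89 with the compounds and 6.70, 6.19 and 6.03 with DMSO, so that each compound array lay slightly under its own control. The mean log2 change of OLIG2 was -0.12 (SE 0.12, limma adjusted p = 0.60). Its signal was dim, at percentile 29.0 of the genes of an array on average.

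ID1 had signals of 11.71 under ET-770, 10.21 under ET-770-DR and 11.27 under RM, against 12.38, 11.37 and 12.00 with DMSO. It was at 0.630-fold, 0.448-fold and 0.601-fold with a mean log2 change of -0.85 (SE 0.14, SD of the pairs 0.27, limma adjusted p = 0.0018). ID3, which shares the helix-loop-helix domain of ID1, had 11.24, 9.72 and 12.18 with the compounds and 11.48, 10.53 and 12.81 with DMSO. The pair of the ET-770 experiment was the closest, at 0.849-fold, while ET-770-DR gave 0.569-fold and RM 0.648-fold. The mean log2 change of ID3 was -0.56 (SE 0.14, SD 0.29, limma adjusted p = 0.018), and without the ET-770-DR experiment it was -0.43 and no longer passed (adjusted p = 0.093). The other members of the ID family did not pass. ID2 was at 0.984-fold, 0.791-fold and 0.770-fold, and ID4 at 1.35-fold, 1.17-fold and 1.04-fold with ET-770, ET-770-DR and RM.

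NOTCH2 had signals of 10.67, 10.03 and 10.14 with ET-770, ET-770-DR and RM, against 11.70, 11.32 and 10.85 with DMSO. All compound arrays lay under all DMSO arrays, as they did for 5.34% of all genes, and among the 10 factors this held for NOTCH2 and MSI2. This sets levels across experiments that may have been normalized apart, and after quantile normalization of the 6 arrays it held for 4 factors (SOX9 and ID1 as well) and for 10.7% of all genes. The mean signal was 10.28 ± 0.34 with the compounds and 11.29 ± 0.43 with DMSO (SD, n = 3 each). NOTCH2 was at 0.488-fold, 0.411-fold and 0.611-fold with a mean log2 change of -1.01 (SE 0.14, SD of the pairs 0.29, limma adjusted p = 0.00077). Another probe of the array, which also carries the symbols of the near-identical partial copies NOTCH2NLA and NOTCH2NLB and was left out of the gene average, was at 0.705-fold, 0.733-fold and 0.710-fold. NOTCH1 and NOTCH3, 2 other receptors of the family, had mean log2 changes of -0.23 and 0.01 (limma adjusted p = 0.26 and 0.98).

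MSI2 gave the largest change of the 10 factors. Its signals were 8.40 under ET-770, 7.55 under ET-770-DR and 7.74 under RM, against 10.72, 10.25 and 10.34 with DMSO. The mean was 7.90 ± 0.45 with the compounds and 10.43 ± 0.25 with DMSO (SD, n = 3 each), with no overlap. MSI2 was at 0.201-fold, 0.154-fold and 0.166-fold with a mean log2 change of -2.54 (SE 0.13, SD of the pairs 0.20, limma adjusted p = 6.6e-06). Its paralog MSI1, also a marker of neural progenitors, had signals of 7.25, 6.43 and 6.97 with the compounds and 7.24, 6.55 and 6.72 with DMSO. MSI1 was higher than DMSO in 2 of the 3 pairs and lower in 1, with a mean log2 change of 0.05 (SE 0.13, limma adjusted p = 0.88). The difference between the paralogs was not tested. The genes whose 3 changes lay nearest to those of MSI2 (Euclidean distance on the log2 scale, over the 3 experiments) were BBS9, a subunit of the BBSome of cilia, at 0.178-fold, 0.147-fold and 0.174-fold, and PDE1C, a cyclic nucleotide phosphodiesterase, at 0.204-fold, 0.150-fold and 0.133-fold.

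Of the 2 structural and metabolic markers, FABP7 fell and NES did not pass. FABP7 had signals of 10.34 under ET-770, 8.28 under ET-770-DR and 12.30 under RM, against 11.16, 9.30 and 12.99 with DMSO. The experiments lay far apart and each compound array lay under its own control, at 0.566-fold, 0.495-fold and 0.620-fold (log2 change -0.84 on average, SD of the pairs 0.16, SE 0.13, limma adjusted p = 0.0011). NES gave 9.25, 8.42 and 10.42 with the compounds and 9.18, 8.61 and 10.54 with DMSO. Its folds of 1.05, 0.877 and 0.919 had a mean log2 change of -0.08 (SE 0.12, limma adjusted p = 0.76).

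With 1 array per arm, a single compound has no replicate check, so its folds are given without a test. At the threshold of 3-fold that the methods of the study used, 1 of the 10 factors, MSI2, was more than 3-fold lower than DMSO with each compound, where 2.15% (ET-770), 2.12% (ET-770-DR) and 1.36% (RM) of all genes were. More than 3-fold higher were 0 of the 10 with each compound, beside 0.233%, 0.51% and 0.0434% of all genes. Under 0.5-fold were 2 factors in ET-770 cells (MSI2 and NOTCH2), 5 in ET-770-DR cells (these and SOX2, ID1 and FABP7) and 1 in RM cells (MSI2), beside 4.68%, 4.94% and 4.28% of all genes. The compounds were given at different doses, and differences between them were not tested.

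**Figure D2:**
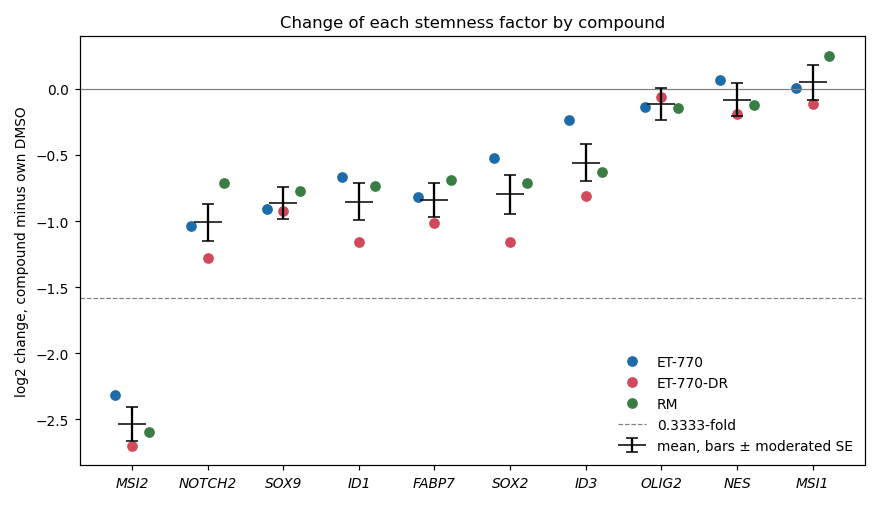
Log2 change of each factor within its experiment, compound minus DMSO, with 1 point per compound, the mean of the 3 pairs as a horizontal mark and bars of ± 1 moderated standard error. MSI2 lies beyond the dashed line for a 3-fold drop with every compound, 6 factors lie between -0.56 and -1.01 on average, and OLIG2, NES and MSI1 lie near 0.

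The vehicle-treated cells of the 3 experiments differed in some of these genes by more than any compound changed them. FABP7 ranged over 3.70 log2 units between the DMSO arrays, or 13.0-fold, lowest in the ET-770-DR experiment and highest in the RM experiment. Once the 6 arrays were quantile normalized, which makes the distribution of signals equal, it still ranged over 9.43-fold. ID3 (4.85-fold as deposited and 3.69-fold after that normalization) and NES (3.82-fold and 3.54-fold) also passed 3-fold, with their highest DMSO signals in the RM experiment. Thus 3 of the 10 factors ranged over more than 3-fold between DMSO arrays, where 3.9% of all genes did after quantile normalization. MSI2 ranged over 1.38-fold as deposited and 1.15-fold after normalization, and OLIG2 over 1.59-fold and 1.06-fold. These are differences between experiments with 1 DMSO array each, which may have been normalized apart, and which the comparison within an experiment leaves out.

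**Figure D3:**
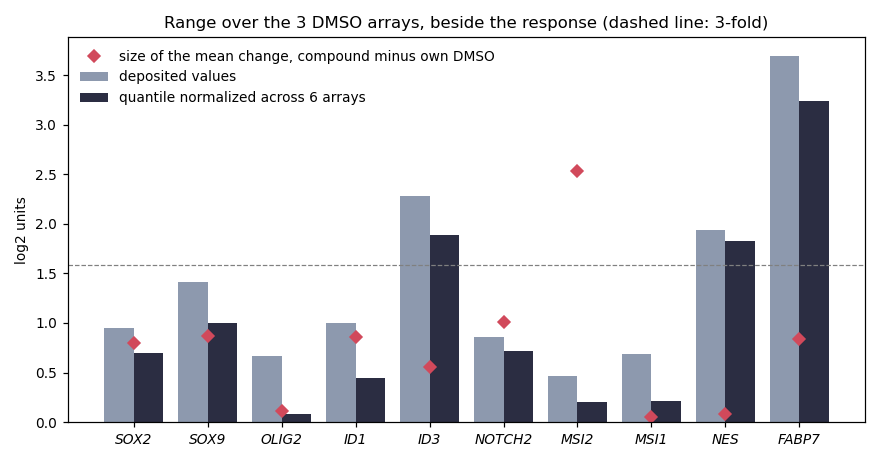
Bars show the range of each factor over the 3 DMSO arrays in log2 units, as deposited (light) and after quantile normalization (dark), and diamonds the size of its mean change with the compounds. The bars of FABP7 (3.70 and 3.24) stand above the size of its change of -0.84, whereas those of MSI2 (0.47 and 0.20) stand below the size of its change of -2.54.

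The factors differ widely in gene span, the distance from the start to the end of a gene with its introns, which the choice of genes did not use. In the RefSeq annotation MSI2 spans 446 kb, longer than 98.0% of the genes with a known span, and NOTCH2 158 kb. ID1 (1.22 kb), ID3 (1.58 kb), SOX2 (2.51 kb), OLIG2 (3.25 kb), SOX9 (5.40 kb) and NES (8.65 kb) are short, and MSI1 spans 29.5 kb and FABP7 34.9 kb. Across 18388 genes, which are not independent replicates, span and the mean log2 change correlated at -0.40 (Spearman). Of 372 genes at least as long as MSI2, 165 fell and 1 rose, or 44.4% and 0.269%. Of 2390 genes between 100 and 300 kb, the class of NOTCH2, 47.0% fell. Under 10 kb, a limit set after seeing the data, 60 of 5245 genes fell, or 1.14%, and 15.8% rose. Of the 6 factors under 10 kb, 4 fell: SOX2, SOX9, ID1 and ID3. Among the 974 genes under 10 kb in the brightest 25%, 17 fell, or 1.75%, and 4 of those 17 were these factors. The part of gene span in the changes of MSI2 and NOTCH2 was not tested.

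**Figure D4:**
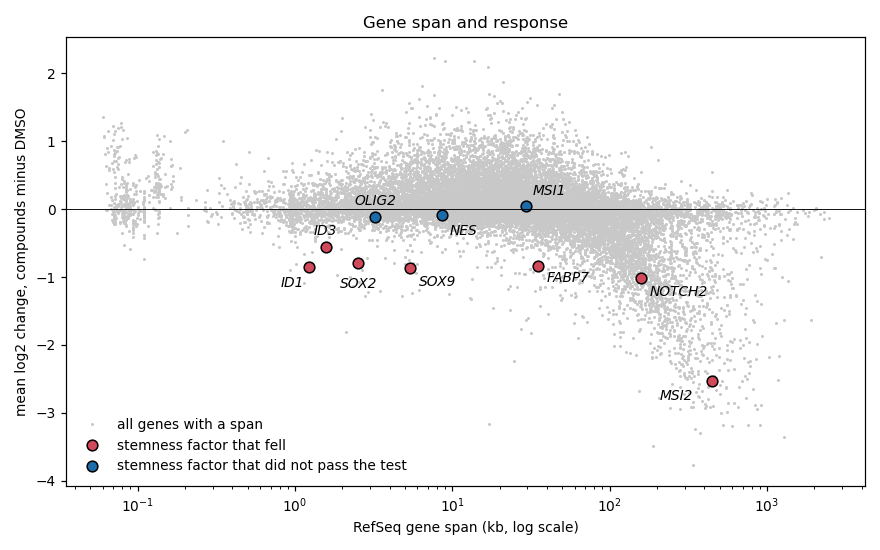
Mean log2 change with the compounds against RefSeq gene span in kb, on a log axis, where grey points are all 18388 genes with a span and large points the 10 factors. MSI2, at 446 kb, lies among long genes that fell, while ID1, ID3, SOX2 and SOX9 lie below most genes of their span.

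Genes that work with these factors were examined as 6 lists, of which 157 distinct genes were measured. Of these 32 fell and 9 rose, and their median log2 change was -0.05, beside 0.03 over all genes. Of 44 genes of the Notch pathway, 9 fell, 3 rose and 32 did not pass. MAML2, a coactivator of the Notch transcription complex, was at 0.197-fold, 0.137-fold and 0.262-fold (log2 change -2.38, SE 0.17, limma adjusted p = 2.1e-05), and KAT2B, a histone acetyltransferase of that complex, fell by 1.65 (SE 0.20). KAT2A, the paralog of KAT2B, named after its values were seen, rose by 0.92 (SE 0.13, limma adjusted p = 0.00067). The rise of KAT2A passed with any experiment left out and after quantile normalization. NUMB, an inhibitor of Notch whose messenger RNA is bound by Musashi in mouse, fell by 1.24 (SE 0.15, limma adjusted p = 0.00037). Of the targets of Notch, HEY1 fell by 0.71 (SE 0.13), HES1 had a mean log2 change of 0.18 (limma adjusted p = 0.48), and HEY2, named after its values were seen, rose by 0.79 (SE 0.19) and did not pass without the ET-770-DR experiment (adjusted p = 0.054 from limma). The targets HES4, HES5, HEYL and NRARP, also named after their values were seen, did not pass. Their mean log2 changes lay between -0.115 (HEYL) and 0.19 (HES4).

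Of 17 other SOX genes, 3 fell and 0 rose. SOX5 was at 0.132-fold, 0.204-fold and 0.394-fold (log2 change -2.18, SE 0.24, limma adjusted p = 0.00022), SOX21, a relative of SOX2, fell by 1.22 (SE 0.16), and SOX6, a relative of SOX5, by 0.82 (SE 0.13). Of 20 further ID proteins and bHLH factors, 5 fell and 1 rose. The rise, of TWIST1 (named after its values were seen, mean log2 change 0.40, limma adjusted p = 0.048), did not pass without the ET-770 or the ET-770-DR experiment (limma adjusted p = 0.54 and 0.055) or after quantile normalization (0.095). TCF4, an E protein that ID proteins bind, fell by 0.96 (SE 0.14), and BHLHE40, a repressor that responds to the circadian clock, by 0.94 (SE 0.13). Of 43 other genes tied to glioma stem cells, 10 fell and 3 rose, and without the ET-770 experiment 6 fell and 0 rose. GLI3, a transcription factor of hedgehog signaling, changed by -2.14, -1.88 and -1.59 on the log2 scale (mean -1.87, SE 0.14, limma adjusted p = 2.4e-05), ZEB1, a factor of mesenchymal change, fell by 1.29 (SE 0.14), and NFIB, a factor of glial differentiation, by 1.19 (SE 0.16). The 3 that rose, named after their values were seen, were KLF4 (mean log2 change 0.70), PAX6 (0.60) and MYC, which was at 2.94-fold (ET-770), 2.42-fold (ET-770-DR) and 0.925-fold (RM). Without the ET-770 experiment none of these 3 passed limma's test (adjusted p = 0.086 for KLF4, 0.25 for PAX6 and 0.078 for MYC). MYC also did not pass without the ET-770-DR experiment (adjusted p = 0.083 from limma) or after quantile normalization (0.062), and 6 genes of this list rose without the RM experiment.

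Of 21 RNA-binding proteins and other partners of the Musashi family, 6 fell and 1 rose, or 3 rose without the RM experiment. QKI, an RNA-binding protein of glial cells, fell by 1.12 (SE 0.14), IGF2BP2, which binds and stabilizes messenger RNA, by 1.07 (SE 0.14), and NUMB as above. CDKN1A, the inhibitor of cyclin-dependent kinases whose messenger RNA is a target of Musashi, was the one that rose, by 1.07 (SE 0.13), and is named after its values were seen. Of 17 intermediate filament and fatty acid-binding protein genes, 1 fell and 1 rose, or 2 rose without the RM experiment. NEFL, a neurofilament, fell by 0.80 (SE 0.13), and CRABP2, a binding protein of retinoic acid, was at 2.45-fold, 3.17-fold and 2.19-fold (log2 change 1.36 on average, SE 0.14, limma adjusted p = 0.00014). The counts of the lists may be read beside the 11.2% of all genes that fell and the 13.1% that rose.

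**Figure D5:**
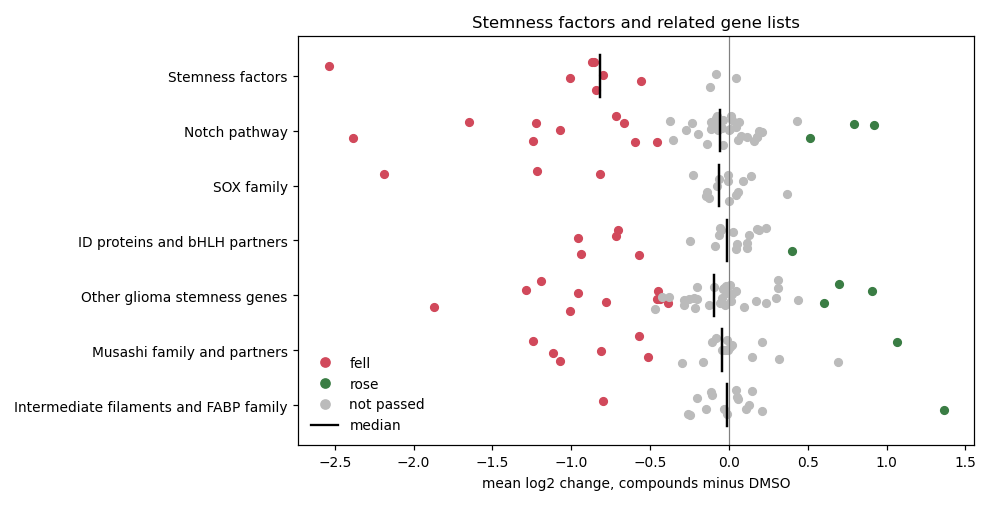
Mean log2 change with the compounds of each gene of the stemness factors (top row) and of the 6 lists of related genes, coloured by whether the gene fell, rose or did not pass the test, with the median of each row as a black line. The median of the stemness factors is -0.82, and those of the lists lie between -0.09 and -0.01.

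The cells were checked for markers of their type. Of 10 astrocyte and glioma markers, AQP4 and SLC1A2 were in the lowest 25% of genes by mean signal, VIM had signals of 12.72 to 13.26 with the compounds and 12.91 to 13.56 with DMSO, and GFAP, the defining filament of astrocytes, had 6.66 to 7.63 and 6.96 to 7.72. The file used here gives no detection call, so whether GFAP was above background is not known. S100B, SLC1A3 and CD44 fell among these markers and 7 did not pass, where 11.2% of all genes fell and 13.1% rose. CD44 did not pass once any experiment was left out, at mean log2 changes between -0.31 and -0.55 (limma adjusted p between 0.085 and 0.11). Of 7 neuron, 6 oligodendrocyte, 6 microglia and 5 endothelial markers, 3 of each set lay in the lowest 25%, MBP fell, CD68, a lysosomal protein, rose, and the others did not pass. Without the ET-770 experiment neither MBP nor CD68 passed (adjusted p = 0.24 and 0.057 from limma). Their mean log2 changes were then -0.45 and 0.61, no smaller in size than the -0.43 and 0.58 with all experiments. MBP also did not pass without the ET-770-DR experiment (limma adjusted p = 0.071). The medians of the arrays over all probes lay between 6.63 and 7.30.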

How the data were processed

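Total RNA of U373MG cells was hybridized by the authors to Human Gene 1.0 ST arrays, 1 array per sample, and normalized by RMA in Affymetrix Expression Console, for which no version is given in the sources used here. The deposited values are RMA signals on a log2 scale for 33297 probes. RMA makes the arrays it normalizes alike in distribution, so that a change in the total RNA of a cell is not seen. The sources do not state whether the experiments were normalized together. Gene medians were 7.92 and 7.98 in the ET-770 and DMSO arrays of the first experiment, 7.22 and 7.28 for ET-770-DR and its DMSO, and 7.41 and 7.40 for RM and its DMSO. Genes with identical values in 2 arrays (17, 10 and 237) occurred within experiments and in 0 of the pairs between them. These values go against a joint normalization, and the main test compares arrays within experiments. The number of arrays limits the precision.

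Of the probes, 19460 carry 1 gene symbol in the platform annotation and were averaged per symbol to 18417 genes, while the 1754 that carry several and the 12083 that carry none were left out. Each of the 10 factors is read by 1 probe, and all 10 lay above the lowest 25% of mean signal. The labels name the DMSO array of each compound. Deviations from the group means correlated at 0.83, 0.69 and 0.82 within an experiment and at 0.24 at most between experiments.

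The response shared by the compounds came from limma 3.58.1 under R 4.3.3 (lmFit, eBayes without trend, treatment and experiment as terms), and p-values were adjusted over all genes. That the samples came from separate cultures is not stated beyond their being 3 independent experiments, so the p-values measure the spread between these arrays. No compound was replicated, so this spread joins differences between the compounds with those between experiments. No p was adjusted over a list. The fit was also run on data simulated from its own model, with normal noise and an equal change for every compound. That run does not test whether the compounds can serve as replicates of each other. Alternatives were another normalization, a filter on dim genes, the brightest probe of a gene, eBayes with trend, no block, leaving out each experiment or DMSO array, the average of all DMSO arrays as control, and a 2-fold threshold. Gene spans and promoters came from RefSeq (GRCh38.p14), matched by Entrez ID. Other steps used Python 3.11.15 with pandas 2.3.3 and matplotlib 3.10.9.

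The factors and the lists were chosen with earlier results of these data known. Genes outside the 10 factors were named by a rule: the 3 genes of each list with the largest mean change among those that passed, and the 2 genes nearest to a factor past 3-fold. Others are said to be named after their values were seen, or are relatives of ID1 and NOTCH2, HES1 and cell type markers. Some listed genes are not analysed here.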

Additional observations from a re-analysis of the deposited data

How the results depend on the processing

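The 7 falls among the 10 factors held in direction and call under quantile normalization, with dim genes left out, with the brightest probe of each gene and with the trend in eBayes. In that order, 2429, 2070, 2064 and 2227 of all genes fell, of 18417 tested, or of 13812 with dim genes left out. Each factor is read by 1 probe and lay above the lowest 25% of mean signal. The filter on dim genes and the choice of the brightest probe thus left the changes of the factors as they were. Those settings could alter only the SE and the adjustment, so they say little about whether the falls hold. Without the replicate block (treatment alone), 1 of the 10 fell (MSI2), 369 genes fell and 26 rose, against 2065 and 2406, and of the list genes 4 fell and 0 rose, against 32 and 9. Leaving out an experiment, 6 to 7 factors fell, 25 to 34 list genes fell and 4 to 16 list genes rose. Over all genes 1505 to 2635 then fell and 1200 to 3506 rose. The lowest counts of rises, 4 and 1200, came without the ET-770 experiment, and the highest without the RM experiment. With the ET-770-DR experiment left out, 1581 genes rose. Without the ET-770 experiment all 10 factors had the same SE, 0.233, against 0.12 to 0.15 with all experiments. A call lost in that setting can thus come from the larger SE as well as from a smaller change. With 1 SE for all factors, a call kept there rests on the size of the mean change. It does not show that the remaining pairs were close to each other. ID3 lost its call without the ET-770-DR experiment. Leaving out the DMSO array alone gave the same values as leaving out its experiment, since the block then takes up the compound array. MSI1, which did not pass, ranged from -0.054 to 0.13 when an experiment was left out, negative without the RM experiment or DMSO replicate 3 (adjusted p = 0.81 from limma). Against the average of all 3 DMSO arrays, which sets levels across experiments, 4 factors were more than 3-fold lower with ET-770-DR, against 1. The share of all genes past 3-fold with this control was not computed, so the 4 are not a result about the factors. With the same control FABP7 had log2 changes of -2.87 (ET-770-DR) and 1.15 (RM), against -1.01 and -0.69. The sign also turned for ID3 with RM (0.58, against -0.63) and SOX2 with ET-770 (0.06, against -0.52), and among factors that did not pass for OLIG2 with ET-770 (0.25, against -0.14) and NES with ET-770 (-0.20, against 0.07) and RM (0.98, against -0.12). At a 2-fold threshold the counts of lower factors were 2 (ET-770), 5 (ET-770-DR) and 1 (RM). The factors past 3-fold between DMSO arrays were 3 before and after quantile normalization, while those with no overlap between groups were 2 before and 4 after it, an alternative chosen after seeing the data. Dim probes such as those of OLIG2 and MSI1 limit what can be seen of their change.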

Other observations

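Genes under 10 kb were seldom lowered, so some of the 60 that fell are given here, chosen after their values were seen. DDIT4, an inhibitor of mTOR signaling that stress induces, fell the most of them, by 1.80 on the log2 scale (SE 0.13, limma adjusted p = 2.2e-05, n = 3 pairs), with folds of 0.317 (ET-770), 0.239 (ET-770-DR) and 0.310 (RM). SOX21 held rank 6 by size of drop, SOX9 rank 18, ID1 rank 19, SOX2 rank 24 and ID3 rank 39. Genes outside the factors, lists and markers were also among the 60, such as FOXR2 (rank 3), NRN1 (rank 4), CITED1 (rank 5) and TAS2R20 (rank 9). S100B, a calcium-binding protein of astrocytes, held rank 12 (mean log2 change -1.04, SE 0.15), and the bHLH repressors BHLHE40, HEY1 and BHLHE41 ranks 15, 28 and 29. POU3F2, a neural factor used beside SOX2 and OLIG2 as a marker of glioma stem cells, held rank 50 (mean log2 change -0.45, SE 0.14, limma adjusted p = 0.044), and did not pass without the ET-770 or the ET-770-DR experiment (adjusted p = 0.18 and 0.26). IL6, at rank 2, was at 0.431-fold, 0.937-fold and 0.173-fold, so that its pairs differed widely.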
